A study of Mus musculus with 27 samples.

Results

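Nkx2-2 and Nkx2-9 are a pair of related homeobox genes, and their 2 rows were followed through the read count tables of the series by their gene symbols. The tables hold 55536 genes for embryonic pancreas, 26487 for islets and 39017 for motor neuron progenitors, and both genes are present once in each table. Nkx2-2 was counted in all 24 RNA-seq libraries. Nkx2-9 had counts in the 8 progenitor libraries only, and 0 counts in the 16 pancreatic libraries.

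Both genes encode NK2-class homeodomain transcription factors, which bind DNA through the homeodomain and can recruit Groucho/TLE corepressors through a short TN motif. The NK2-specific domain (SD) is a conserved stretch outside the homeodomain that members of the class share. In the ventral neural tube, Sonic hedgehog signalling switches on Nkx2-2 and Nkx2-9 in neighbouring and overlapping progenitors, and Nkx2-2 represses Olig2 and Pax6 at the border with the motor neuron progenitor (pMN) domain. In the pancreas, Nkx2-2 is required for the formation of beta cells and remains on in adult islets.

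The study measured what a mutation of the SD domain does to gene expression in pancreas and in neural progenitors. Whole pancreata at embryonic day E15.5 gave 3 control and 4 SDmut libraries. Islets at 8 weeks gave 2 control libraries and 3 labelled betaSDmut, with the mutation in beta cells, and islets at 4 weeks gave 2 control libraries and 2 labelled betaKO, a beta-cell knockout of Nkx2.2. The series' design text calls the controls wildtype. The Cre driver and the deleted exons are not given in the sources used here. The 4-week libraries carry a genomic DNA label although their columns hold gene counts like the others. The 4-week libraries are also labelled as taken from another study. Between 4-week and 8-week libraries, age and study therefore cannot be told apart. Where betaSDmut and betaKO are compared, neither can be told apart from the mutation. The progenitors were made from mouse embryonic stem cells and collected on day 4 of differentiation. Of these, 3 libraries came from the line mES iNkx2.2 without treatment (pMN), 3 from the same line after 1 µg/ml doxycycline for about 16 h, which switches on a FLAG-tagged wildtype Nkx2.2 transgene (iNkx2.2), and 2 from the line mES iSDmut after the same treatment, which switches on the SD mutant (iSDmut). Untreated mES iSDmut cells are not analysed here, so in comparisons of iSDmut the transgene and the cell line cannot be told apart, and doxycycline and the transgene cannot be told apart in either line. A binding profile of Nkx2.2 came from 2 chromatin immunoprecipitation (ChIP-seq) libraries of MIN6, a mouse beta-cell line.

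Total counts per library were 38447596 to 41840638 in embryonic pancreas, 12398041 to 32385406 in islets and 17757991 to 46840701 in progenitors. Levels are given as CPM (normalised counts scaled to a total of 1000000 per library, with TMM factors set within each table), and differences as log2 fold changes from edgeR, called at an adjusted p under 0.05 over all genes tested. Acinar markers were near 0 in progenitors, with a summed level of at most 0.981 CPM, and the 6 neural progenitor markers summed to 1125 to 1154 CPM in pMN, 574 to 599 in iNkx2.2 and 575 to 905 in iSDmut (2 of the 6 are Pax6 and Olig2). All 7 endocrine markers had counts in every pancreatic library. In embryonic pancreas, control 3 and SDmut 2 carried skeletal muscle transcripts, with muscle marker sums up to 5384 and 6236 CPM. Nothing says that replicates were separate cultures or animals, so p-values measure only the spread between these libraries, which may be technical.

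Nkx2-2 (ENSMUSG00000027434) lies on the minus strand of chromosome 2, at 147177546 to 147194243 of GRCm38, and its union of annotated exons is 2875 bases long. An antisense gene, Nkx2-2os, overlaps it on the plus strand from 147184083 to 147331681. Nkx2-9 (ENSMUSG00000058669) lies on the minus strand of chromosome 12, at 56611389 to 56613284, with 1264 bases of exon. Nkx2-1, another NK2 gene, is the nearest protein-coding gene to Nkx2-9, at a distance of 74.5 kb, and Nkx2-4 is the nearest to Nkx2-2, at 92.1 kb. Both members thus sit beside a gene of their own family, with a Pax gene on the other side: Pax1 at 168 kb from Nkx2-2 and Pax9 at 78.5 kb from Nkx2-9.

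The short windows below are shown because they hold the only match, in the 250 bases before each RefSeq gene start (GRCm38), to AAGTG or its reverse complement CACTT, the core of the sequence that NK2 homeodomains bind. Each is read on the strand of its gene, with the match in capitals. They span 147186583 to 147186611 on chromosome 2 for Nkx2-2 and 56613429 to 56613457 on chromosome 12 for Nkx2-9. The RefSeq start of Nkx2-2, at 147186402, lies inside the gene extent given above, whose upstream end is 147194243. The window of Nkx2-2 therefore lies inside that extent too. For Nkx2-9 the RefSeq start, 56613284, is the upstream end of the extent. Distances from a gene start are from the RefSeq start throughout.
Nkx2-2: actgtcttcatcCACTTgactcccaagac
Nkx2-9: attatctgtcccCACTTtggtctaatcag
The match begins 197 bases before the start of Nkx2-2 and 161 bases before that of Nkx2-9. At Nkx2-2 it is part of the longer TNAAGTG (on the other strand), and at Nkx2-9 it is not. The core is common: 40.8% of the 27025 genes with a RefSeq start have it within the same 250 bases on either strand, and 10.04% have TNAAGTG, which contains the core. No binding event was called in either window.

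In MIN6 cells the authors called 10749 Nkx2.2 binding events and kept 6473 as final sites. Within 100 kb of the start of Nkx2-2 there were 2 events, and within 100 kb of Nkx2-9 there were 0. For comparison, 49.2% of genes have at least 1 event within 100 kb of their start. The events at Nkx2-2 lie 61.2 and 61.7 kb upstream of the gene start, at positions 147247610 and 147248098 as the authors' files give them (counting from 0 or 1 is not stated), both in an intron of Nkx2-2os and 488 bases apart. The nearer one had 123 and 79 reads in the replicates and is not in the final set. The farther one had 111 and 79 reads, ranked 2885 of all events by mean log2 CPM, and is a final site with authors' log2 CPM values of 7.15 and 7.06, ranked 2258 of the final sites. The authors' deposited table of bound genes joins this site to Nkx2-2, with a mean log2 CPM of 7.11. Nkx2-9 is not among the 2594 genes of that table, which is named for the comparison of betaSDmut and betaKO islets. With 0 counts in islets, it is not listed in the authors' islet comparisons either. Its absence from the bound genes therefore says nothing about binding.

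The nearest event to Nkx2-9 on its chromosome lay 284 kb downstream, at position 56329056 in an intron of Mbip, with 188 and 169 reads. With a window of 250 kb the counts were still 2 and 0, and with 50 kb both genes had 0. The counts at Nkx2-2 thus rest on events more than 60 kb from its RefSeq start, and less far from the upstream end of its annotated extent. These are values of a beta-cell line, in which the level of Nkx2-9 was not measured, and no binding profile of the progenitors is analysed here.

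The 201 bases around the final site upstream of Nkx2-2 (chromosome 2, 147247998 to 147248198, plus strand, GRCm38) are shown because it is the only final site within 250 kb of either gene.
Nkx2-2 upstream site: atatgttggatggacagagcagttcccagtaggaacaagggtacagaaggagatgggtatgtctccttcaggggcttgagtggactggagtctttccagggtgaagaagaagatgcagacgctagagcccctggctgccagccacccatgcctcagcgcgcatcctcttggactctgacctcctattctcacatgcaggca
This window has 0 matches to AAGTG or CACTT, so it has no capitals. Of all 6473 final sites, 40.7% have the core within the same 201 bases and 14.6% have TNAAGTG, so most windows, like this one, lack these letters.

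**Figure D1:**
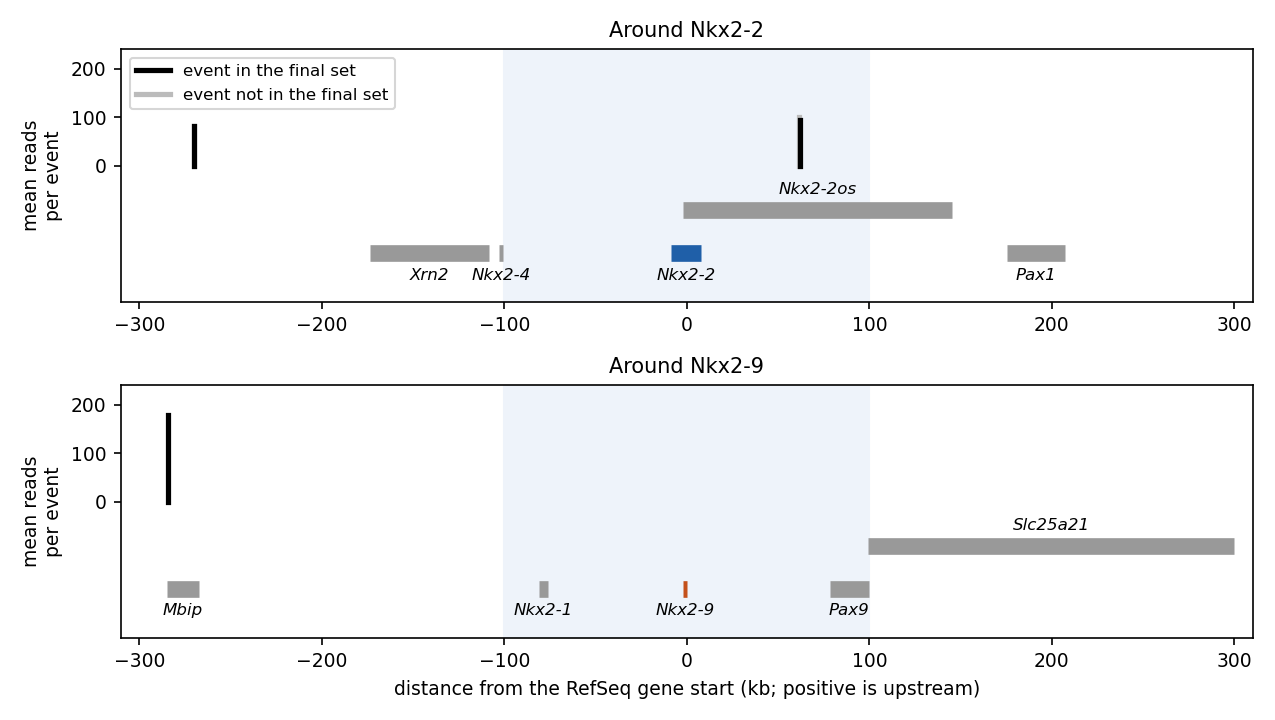
Genes (bars) and Nkx2.2 binding events in MIN6 cells (vertical lines, height in mean reads of both replicates) by distance in kb from the start of Nkx2-2 (top) and Nkx2-9 (bottom). The shaded span is 100 kb to either side: the 2 events upstream of Nkx2-2, which overlap at this scale, fall inside it, and none falls inside it at Nkx2-9.

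Nkx2-2 itself was far higher in both induced groups than in pMN. Its normalised counts were 11.6, 5.399 and 10.7 CPM in pMN, 378, 343 and 343 CPM in iNkx2.2, and 248 and 245 CPM in iSDmut. The 3 groups did not overlap, as was the case for 31.4% of genes between iNkx2.2 and pMN and for 36.4% between iSDmut and pMN. The log2 fold change over pMN was 5.25 (SE 0.242, edgeR adjusted p = 1.49e-05) in iNkx2.2 and 4.72 (SE 0.245, edgeR adjusted p = 4.01e-05) in iSDmut, the smallest and the second smallest p of the 15653 genes in these comparisons.

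The count tables add reads of the endogenous gene and of the transgene in the single row of Nkx2-2. The induced level is therefore the sum of both, and how much of it is endogenous cannot be told apart. In pMN, where the transgene was not induced, 89 to 253 counts per library were assigned to Nkx2-2, above the floor of 3 counts, and in these, transcripts of the endogenous gene and of an uninduced transgene cannot be told apart. The antisense gene Nkx2-2os had 0 counts in 7 of the 8 progenitor libraries and 3 counts in iNkx2.2 replicate 1.

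The mean level of the Nkx2-2 row, endogenous gene and transgene together, was 69.5% as high in iSDmut as in iNkx2.2, 246 ± 2.40 CPM (SD, n = 2) against 355 ± 20.1 CPM (SD, n = 3). The log2 difference of -0.53 (SE 0.222) was not called (edgeR adjusted p = 0.37, unadjusted p = 0.0406), although the groups did not overlap, as was the case for 31.9% of genes in this comparison. The authors' deposited table gives a log2 difference of 0.54 for iNkx2.2 over iSDmut (unadjusted p = 0.00123), without a call.

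Nkx2-9 moved the other way. Its normalised counts were 97.6, 69.7 and 89.4 CPM in pMN, 4.98, 1.39 and 1.62 CPM in iNkx2.2, and 13.1 and 9.85 CPM in iSDmut. Every induced library lay below every pMN library, and both iSDmut libraries lay above all 3 iNkx2.2 libraries. Such a lack of overlap was common. It held for 31.4% of genes between iNkx2.2 and pMN, 36.4% between iSDmut and pMN, and 31.9% between iSDmut and iNkx2.2. The gene fell by 4.91 on the log2 scale in iNkx2.2 (SE 0.420, edgeR adjusted p = 0.000283). It fell by 2.90 in iSDmut (SE 0.444, edgeR adjusted p = 0.00945). Both members were thus called in both comparisons. In iNkx2.2 against pMN, 9.49% of all genes were called, 4.71% higher and 4.78% lower, and in iSDmut against pMN 3.54% were, 1.9% higher and 1.64% lower. These are 738 genes higher and 748 lower in iNkx2.2, and 297 higher and 257 lower in iSDmut. Scaling by total library size moved the split to 917 higher and 412 lower in iNkx2.2, where the median over all genes went from -0.0086 to 0.094, and to 342 higher and 164 lower in iSDmut. In a fit blocked on replicate number, the total of genes called in iNkx2.2 against pMN was 4629 instead of 1486, and both members kept their calls.

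What remained of Nkx2-9 was 3.11% of the pMN mean in iNkx2.2 and 13.4% in iSDmut. Replicate 1 of iNkx2.2, with 244 counts of the gene, held most of what was left, and without it the share was 1.76%. That library also had the highest Nkx2-2 level of all 8 libraries and the largest total count, 46840701. The 31 and 43 counts in the other iNkx2.2 libraries are above the floor of 3 counts, so a residual level was detected in each.

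The direct comparison of the mutant with the wildtype transgene gave 11.5 ± 2.30 CPM (SD, n = 2) of Nkx2-9 against 2.66 ± 2.01 CPM (SD, n = 3), a ratio of 4.31. The log2 difference of 2.00 (SE 0.430) had an unadjusted p of 0.000989 but an edgeR adjusted p of 0.105, so it was not called, where 0.281% of genes were (0.16% higher and 0.121% lower in iSDmut). It passed the threshold without iNkx2.2 replicate 1 (log2 difference 2.91, edgeR adjusted p = 0.0132) and with DESeq2 (2.097, adjusted p = 0.0212), within a range of 0.0132 to 0.518 over all alternatives. The fall in iSDmut against pMN was not called without iSDmut replicate 2 (-2.71, edgeR adjusted p = 0.0556) nor among the lane 2 libraries alone (-2.66, edgeR adjusted p = 0.117), with the direction kept. Both of these fits hold 1 iSDmut library, which is assumed to vary like the other groups. The authors' deposited table calls Nkx2-9 lower in iNkx2.2 and in iSDmut than in pMN, with log2 fold changes of -4.91 and -2.88, and does not call the difference of -2.04 between iNkx2.2 and iSDmut (unadjusted p = 0.00114). The comparisons against pMN share its 3 libraries and are not independent of each other.

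**Figure D2:**
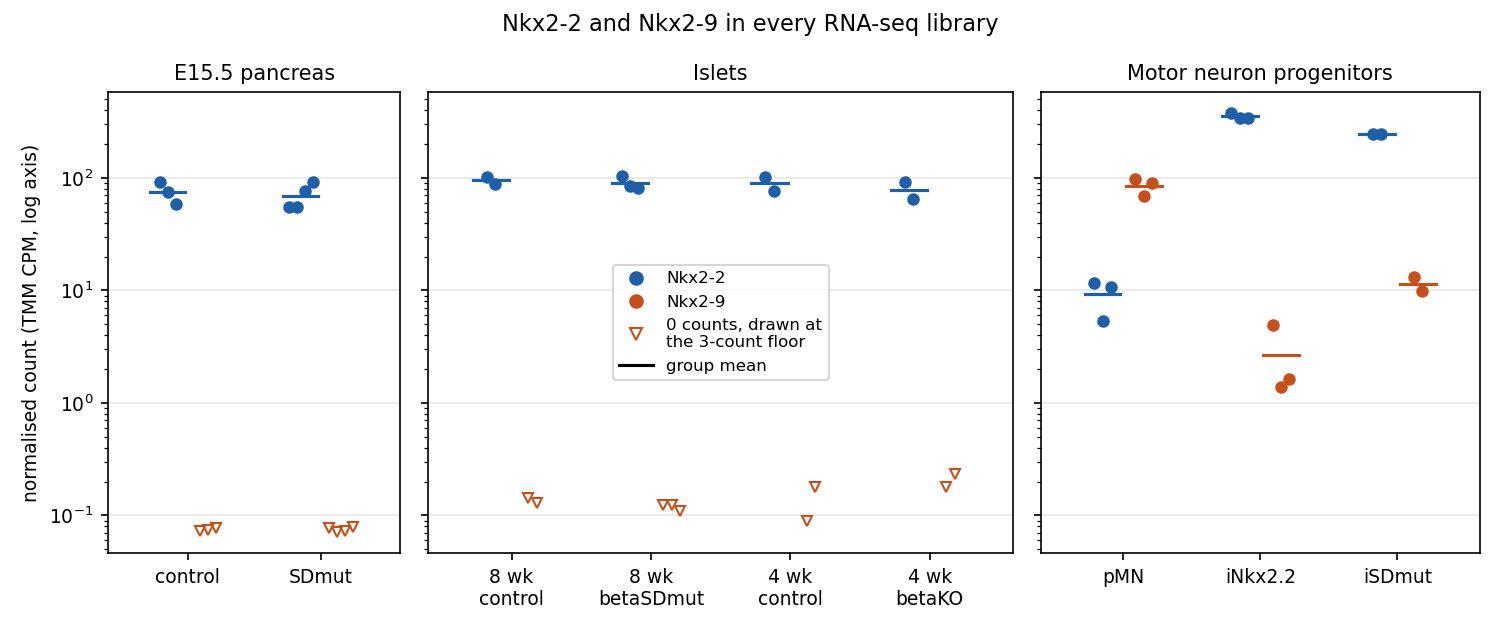
Normalised counts (TMM CPM, log axis) of Nkx2-2 and Nkx2-9 in each library of embryonic pancreas, islets and progenitors, with lines at group means and open triangles at the 3-count floor for libraries with 0 counts. The pancreatic groups overlap in Nkx2-2, and the pMN libraries have the highest Nkx2-9, at 69.7 to 97.6 CPM.

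To compare the genes with each other, the authors' FPKM values, which are per length of transcript, were used. Nkx2-9 exceeded Nkx2-2 in each pMN library, with FPKM of 69.9 against 8.58 in replicate 1, 48.6 against 3.68 in replicate 2 and 68.6 against 8.12 in replicate 3. Nkx2-9 was on average 9.93 ± 2.84 times (SD, n = 3) the level of Nkx2-2 in uninduced progenitors. Per length, Nkx2-9 was therefore the more abundant of the pair before induction. The order turned in all 5 induced libraries, where Nkx2-2 was 211 ± 99.3 times (SD, n = 3) the level of Nkx2-9 in iNkx2.2 and 25.4 ± 3.65 times (SD, n = 2) in iSDmut. From CPM per kb of annotated exon the ratios were 22.5, 78.4 and 9.62, with the same order in every library. Replicate 2 had the lowest level of both genes among the pMN libraries.

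**Figure D3:**
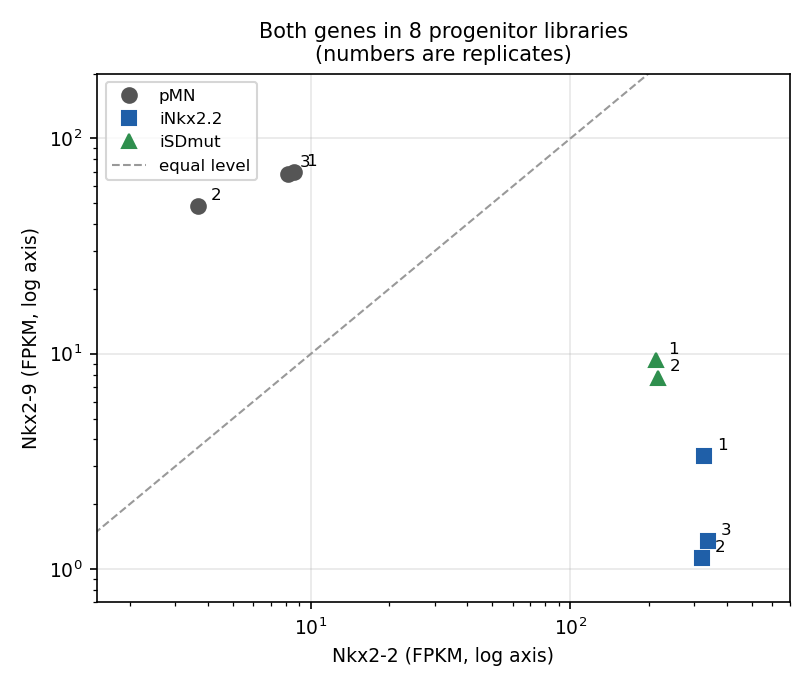
The authors' FPKM of Nkx2-2 (horizontal) and Nkx2-9 (vertical) in the 8 progenitor libraries, both on log axes. The pMN libraries lie above the line of equal level and the 5 induced libraries below it, with iSDmut between pMN and iNkx2.2 on both axes.

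Among the neighbours, Nkx2-1, a homeobox gene known from ventral forebrain, thyroid and lung, was at a low level in pMN, with 23, 18 and 26 counts. It had 8, 0 and 1 counts in iNkx2.2 and 5 and 2 counts in iSDmut. Its log2 fold change was -3.68 (SE 0.660, edgeR adjusted p = 0.0106) in iNkx2.2 and -2.72 (SE 0.752, edgeR adjusted p = 0.0818) in iSDmut, so it was called in the first comparison only, and the difference between the transgenes was not called (log2 difference 0.96, edgeR adjusted p = 0.701). Among the lane 2 libraries alone the fall in iNkx2.2 was not called (-3.42, edgeR adjusted p = 0.0627). The genes beyond, Mbip, Pax9 and Slc25a21, were not called in iNkx2.2 against pMN, at log2 fold changes of -0.35, 0.22 and -0.68 (edgeR adjusted p = 0.223, 0.687 and 0.101). On the Nkx2-2 side Xrn2, a nuclear exonuclease gene, was not called (-0.26, edgeR adjusted p = 0.0772), Foxa2 was at 0.72 (edgeR adjusted p = 0.0523), and Nkx2-4 and Pax1 had at most 0.112 and 0.243 CPM in any progenitor library. With the replicate block, Mbip, Slc25a21 and Xrn2 were called lower than in pMN (edgeR adjusted p = 0.0138, 0.0351 and 0.00733). Of the 4 NK2 family genes tested in progenitors, 1 was called higher (Nkx2-2 itself) and 2 lower (Nkx2-9 and Nkx2-1) in iNkx2.2. Nkx2-5, a heart gene, was at 0.281 CPM in pMN and was not called.

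Genes of the hedgehog response, the input that switches on both members in the neural tube, were mostly lower under either transgene. Of 9 tested, 6 were called lower and 0 higher in iNkx2.2 (with DESeq2 or total library size 1, Foxa2, was higher), with a median log2 fold change over the list of -1.62 against -0.0086 over all genes. The smallest p-values were those of Gli2, Gli1, Ptch1 and Gli3, at -3.85, -3.005, -1.15 and -1.72. Gli1 and Ptch1 are direct transcriptional targets of the pathway. The same count of 6 genes was called lower in iSDmut, where the median was -1.06, and 0 of the 9 were called between the transgenes with edgeR (median 0.41), although 4 had an unadjusted p under 0.05 and DESeq2 called 3. All 6 calls in iNkx2.2 held without any 1 library, whereas in iSDmut those of Gli3 and Hhip were lost in 3 and 6 of the 8 fits without 1 library. Shh and Smo, the ligand and the transducer, were not called in either comparison.

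Factors of the neighbouring domains fell as well. In iNkx2.2, 6 of 11 were called lower and 0 higher (median -1.74), led by Pax6 (-5.54), Olig1 (-5.10), Olig2 (-5.35) and Irx5 (-2.40). Irx3, a further one of the 6 that was named after its values were seen, was at -2.35 (edgeR adjusted p = 0.0137) and was not called with the replicate block (-2.44, edgeR adjusted p = 0.0533). In iSDmut, 4 of 11 were called lower and 0 higher (median -1.31), namely Pax6 (-2.77), Olig1 (-2.96), Nkx6-2 (-1.31) and Dbx2 (-2.49). Without 1 library, the calls of the 4 named genes in iNkx2.2 held in all 8 fits, and in iSDmut only that of Pax6 did, with Olig1, Nkx6-2 and Dbx2 lost in 2, 4 and 7 fits. Olig2, the defining factor of the pMN domain, was at 254 ± 46.6 CPM in pMN (SD, n = 3), 5.92 ± 4.07 in iNkx2.2 (SD, n = 3) and 56.4 ± 43.4 in iSDmut (SD, n = 2), where its value of -2.18 was not called (edgeR adjusted p = 0.0741). Pax6 was the only one of the 11 called between the transgenes with edgeR (DESeq2 called 5), 2.77 higher on the log2 scale in iSDmut (SE 0.384, edgeR adjusted p = 0.0304). This call was lost in 6 of the 8 fits without 1 library (edgeR adjusted p up to 0.147), among them each fit that left out an iNkx2.2 library.

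Genes of the fates that arise from Nkx2-2 progenitors, a list that also holds Nkx2-9, moved in both directions. In iNkx2.2, 6 of 9 tested were called higher and 1, Nkx2-9 itself, lower (median 1.31). Uncx, a homeobox gene of ventral interneurons, had 0, 1 and 2 counts in pMN and 230, 75 and 132 counts in iNkx2.2. It had 23 and 52 counts in iSDmut. Gata2, a factor of ventral interneurons, rose by 1.31 on the log2 scale in iNkx2.2, a call that was lost in 5 of the 8 fits without 1 library. In iSDmut, 2 of the 9 were called higher, Uncx among them, and 2 lower, Nkx2-9 among them, with a median of -0.61. Nkx2-9 is a gene of the progenitors themselves, and its place on this list was a choice made here. Its direction against most of the list under the wildtype transgene is therefore not read as a result.

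Among 12 genes for corepressors and DNA methylation factors, 4 were called higher in iNkx2.2 (Tle2, Aes, Tle6 and Dnmt3a, at 3.02, 1.23, 3.08 and 0.66) and 3 lower (Tle1, Uhrf1 and Dnmt1, at -1.02, -0.51 and -0.38). In iSDmut 3 were called higher (Tle2, Aes and Tle6, at 2.37, 0.81 and 1.88) and 2 lower (Uhrf1 and Dnmt1, at -0.69 and -0.48). None of the 12 was called between the transgenes with edgeR, while 6 had an unadjusted p under 0.05 and DESeq2 called 2. The calls of Dnmt3a, Uhrf1 and Dnmt1 in iNkx2.2 were lost in 5, 1 and 7 of the 8 fits without 1 library, and those of Tle6 and Dnmt1 in iSDmut in 3 and 7.

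The genes whose level over the 8 progenitor libraries was most like that of Nkx2-9 were Olig1, Olig2, Neurog2, Tle1 and Gprc5b, with Pearson r of log2 CPM from 0.989 to 0.980 among 11207 genes. Neurog2, a proneural factor of motor neuron progenitors, ranged from 98.8 to 116 CPM in pMN, from 0.806 to 1.84 in iNkx2.2 and from 6.69 to 25.4 in iSDmut. These correlations describe 8 libraries in 3 separate groups, and 176 genes had an r over 0.9. After the group means were removed, r was 0.804 for Olig1, 0.846 for Olig2, 0.649 for Neurog2, 0.743 for Tle1 and 0.755 for Gprc5b.

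**Figure D4:**
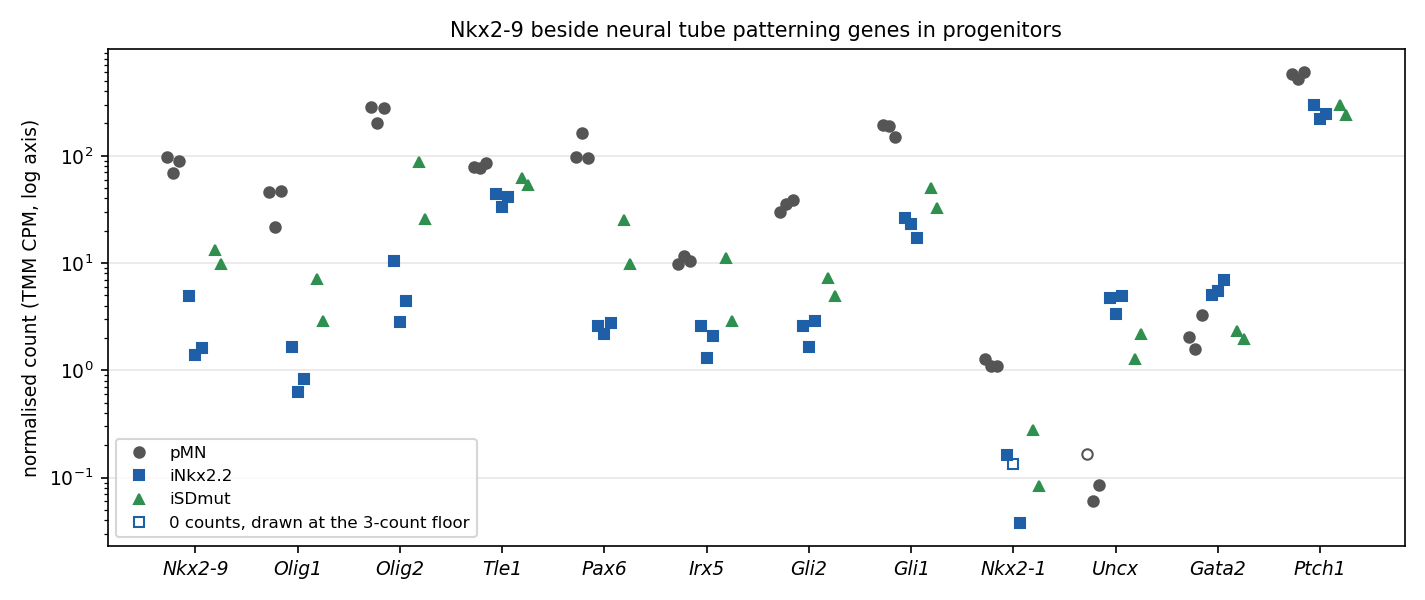
Normalised counts (TMM CPM, log axis) of Nkx2-9 and 11 other genes in each progenitor library, with open symbols at the 3-count floor for libraries with 0 counts. In Nkx2-9, Olig1, Olig2, Pax6 and Gli2 the iSDmut libraries lie between the iNkx2.2 and the pMN libraries.

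In embryonic pancreas the transcript of the mutated gene did not pass the test. Nkx2-2 was at 91.4, 74.5 and 58.7 CPM in the controls and at 54.9, 55.6, 77.0 and 91.2 CPM in the SDmut pancreata. The ranges of both groups nearly coincide. The log2 fold change was -0.10 (SE 0.224, edgeR adjusted p = 1.00), in a comparison that called 0.00534% of genes. Without both muscle-bearing libraries it was -0.16, and without control 1 it was 0.066. The counts do not separate mutant from wildtype transcripts, and in bulk tissue fewer expressing cells and less RNA per cell cannot be told apart.

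The 7 endocrine marker genes, which mark the cells that express Nkx2-2 in the pancreas, summed to 849, 542 and 424 CPM in the controls and to 305, 279, 420 and 382 CPM in the mutants. Unlike Nkx2-2, this sum did not overlap between the groups, as was the case for 3.58% of single genes. The markers fell unequally, with log2 fold changes of -1.46 for Chga, -0.96 for Chgb, -0.58 for Scg5 and -0.47 for Pcsk2. Insm1, Scg2 and Scg3 were at -0.31, -0.099 and -0.045, and none of the 7 was called. The sum weighs most on Chgb and Chga, its most abundant members, and is not a measure of endocrine cell number. Set against it, Nkx2-2 amounted to 10.8%, 13.8% and 13.8% of the endocrine sum in the controls and to 18.0%, 19.9%, 18.4% and 23.9% in the mutants. This ratio was chosen after its values were seen and is given without a test, and the part of the endocrine content in the level of Nkx2-2 was not tested.

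Nkx2-2os was at 0.968 ± 0.172 CPM (SD, n = 3) in control and 1.21 ± 0.276 CPM (SD, n = 4) in SDmut pancreata, or 30 to 63 counts per library, and was not called (log2 difference 0.32, SE 0.298, edgeR adjusted p = 1.00). The islet table names an antisense row Nkx2-2as, which had 0 to 6 counts, and whether it is the same gene model as Nkx2-2os is not stated. Whether the counting used strand is not stated, so reads of Nkx2-2 and of its antisense gene may not be separated where they overlap. Nkx2-9 had 0 counts in all 7 libraries, where 3 counts would be 0.0710 to 0.0791 CPM, and could not be tested. Of the other family members, Nkx2-3, a gene of gut and spleen mesenchyme, was at 22.5 ± 7.45 CPM in controls (SD, n = 3) and 24.8 ± 12.4 in SDmut (SD, n = 4). Nkx2-5 varied from 0.245 to 40.4 CPM, and neither was called.

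Over the 7 embryonic libraries the levels most like that of Nkx2-2 were those of Sema7a, Gspt1, Pde8b, Dsg2 and Anpep (Pearson r 0.997 to 0.983, of 12413 genes, with 277 over 0.9). Foxa2, an endodermal factor and a neighbour of Nkx2-2, was also highest in control 1, SDmut 3 and SDmut 4, at 87.7, 89.4 and 89.6 CPM. The same libraries had the lowest mesenchymal marker sums, at 6594, 5590 and 6928 CPM against 10398 to 14903 in the others. Their acinar marker sums were the highest, at 31747, 39847 and 31122 CPM against 12742 to 25947. The part of tissue content in the level of Nkx2-2 and in these likenesses was not tested. With edgeR none of the genes on the lists for islet regulators (8 tested) or islet factors and targets (17 tested) was called, nor of the hedgehog, ventral, output and partner lists (8, 4, 8 and 12 tested). An unadjusted p under 0.05 was found for 8 of the 17 islet factors, for 0 of the islet regulators, and for 0, 1, 1 and 2 genes of the other lists.

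For the islet factors the median log2 fold change was -0.49 against 0.011 over all genes. Both insulin genes, named here after their values were seen, were lower in every SDmut library than in every control, and the groups of 3.58% of all genes did not overlap. Ins2 was at 443, 196 and 154 CPM in the controls and at 11.7, 8.33, 14.6 and 11.5 CPM in SDmut, a log2 fold change of -4.52 (SE 0.403) with the second smallest p of 18723 genes but an edgeR adjusted p of 0.0608. Ins1 was at 228, 98.9 and 79.9 CPM against 14.3, 11.2, 21.7 and 12.95 CPM (-3.17, SE 0.405, edgeR adjusted p = 0.284). DESeq2, which called 25 genes in this comparison where edgeR called 1, called 3 of the 17 islet factors, among them Ins2 and Ins1 lower, and none of the other lists. With total library size edgeR called Ins2 too.

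In 8-week islets, Nkx2-2 was at 103 and 88.6 CPM in controls and at 104, 84.8 and 80.8 CPM in betaSDmut. The highest library was a mutant one, and the groups overlapped, while those of 45.7% of genes did not. The log2 fold change was -0.096 (SE 0.128, edgeR adjusted p = 0.68), while 7.94% of genes were called in this comparison, 4.07% higher and 3.87% lower, that is 628 and 596 genes, or 927 and 434 when scaled by total library size. The authors' deposited table gives -0.10 with an unadjusted p of 0.441.

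In 4-week islets, Nkx2-2 was at 103 and 76.2 CPM in controls and at 92.9 and 64.6 CPM in the islets labelled betaKO. The log2 difference of -0.18 was smaller in size than its SE of 0.237 (edgeR adjusted p = 0.779), and 1.56% of genes were called, 0.81% higher and 0.75% lower. On the authors' FPKM scale the groups did not overlap, with 90.7 and 67.7 in controls against 66.3 and 54.2, but neither did the CPM of 47.5% of all genes. The gene-level count sums reads over all exons, so it cannot check a deletion of 1 exon, nor show transcripts without a complete reading frame, and the knockout label rests on the label alone here. Acinar markers summed to 14134 and 40280 CPM in betaKO against 5838 to 10840 in the 4-week controls, and their part in the level of Nkx2-2 was not tested.

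The order of the 4 islet groups by mean CPM of Nkx2-2 was 8-week control (95.7 ± 9.98, n = 2), 8-week betaSDmut (89.9 ± 12.4, n = 3), 4-week control (89.4 ± 18.6, n = 2) and betaKO (78.7 ± 20.0, n = 2), each with its SD. No neighbours in this order differ beyond their spread. The betaSDmut and betaKO effects differed by 0.094 (SE 0.288, edgeR adjusted p = 0.93), a comparison that called 1.21% of genes (0.644% higher and 0.569% lower). These were 103 and 91 genes, or 168 and 58 with total library size, which moved the median over all genes from 0.012 to 0.18. Nkx2-9 had 0 counts in all 9 islet libraries, where 3 counts would be 0.0892 to 0.234 CPM, and the authors' FPKM lists it at 0. Of its family only Nkx2-3 was also measured in islets at a mean above 1 CPM, at 1.72 to 3.16 CPM over the groups, and it was not called.

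**Figure D5:**
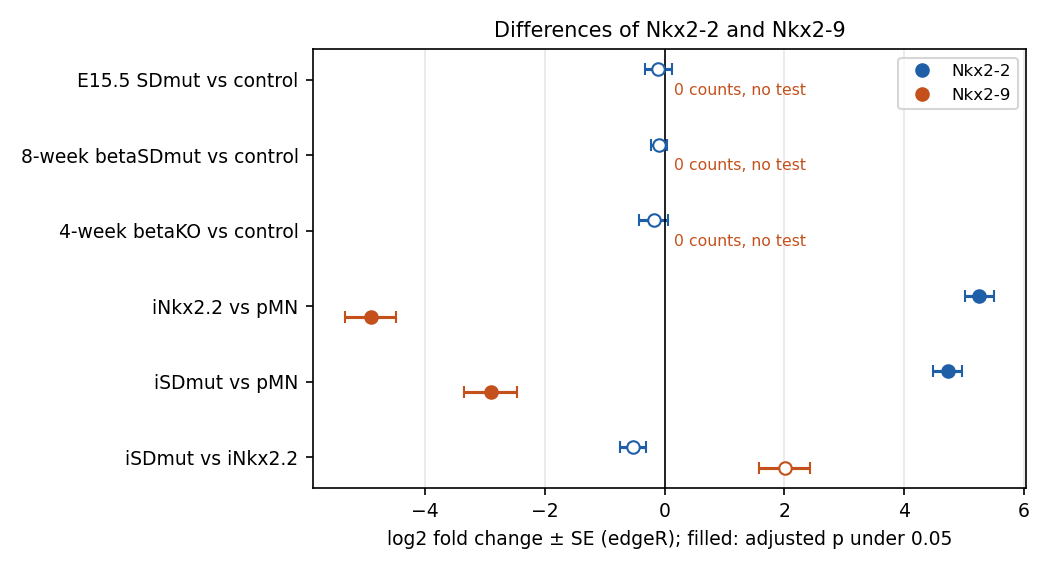
Log2 fold changes with SE of Nkx2-2 and Nkx2-9 in 6 comparisons, filled where called by edgeR at an adjusted p under 0.05. The pancreatic differences of Nkx2-2 lie between -0.18 and -0.096, and the filled points are those of either induced group against pMN.

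While Nkx2-2 itself was not called in islets, some genes of the lists were. Over all genes, 7.94% were called in betaSDmut and 1.56% in betaKO. Of 12 corepressor and methylation genes, Tle4 was called higher and Tle3 lower in betaSDmut (1.71 and -1.49) and in betaKO (1.504 and -0.82), and neither differed between these effects (edgeR adjusted p = 0.707 and 0.137). In betaSDmut, 4 of 16 islet factors and targets were called, 2 higher, among them Isl1 (0.98), and 2 lower, Slc2a2 and Nkx6-1 (-0.89 and -0.91), with a median of -0.038 over the list (0.048 with total library size). In betaKO, 2 of 16 were called, Ppy and Gcg, both higher (1.47 and 1.06), with a median of 0.19. Of the 7 upstream islet regulators tested, 1 was called in betaSDmut, Insm1 lower (-0.50), and 0 in betaKO. The call of Tle4 in betaSDmut held without any 1 library, and each of the other calls named here was lost when either control library of its age was left out. Those fits hold 1 control library, which is assumed to vary like the other group, and call 45 and 37 genes at 8 weeks and 4 and 15 at 4 weeks, in place of 1224 and 233. With total library size the call of Tle4 in betaKO was lost as well.

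Summed glial, mesenchymal, duct and motor neuron markers also stood apart between the islet groups of each age. Acinar and endocrine ones did at 4 weeks only, and skeletal muscle ones at 8 weeks only, with sums of at most 3.55 CPM. The groups of 45.7% of single genes at 8 weeks and of 47.5% at 4 weeks did not overlap either. Sums of neural progenitor and pluripotency markers overlapped at both ages. At 8 weeks the 3 glial markers summed to 3.97 to 5.20 CPM in betaSDmut against 14.3 to 17.8 in controls. The 5 mesenchymal markers summed to 123 to 174 CPM against 205 to 265, and the 4 duct markers to 144 to 223 against 224 to 306. Acinar markers overlapped, at 936 to 10584 CPM against 7824 to 13029. At 4 weeks, beside the acinar markers given above, mesenchymal markers summed to 344 to 419 CPM in betaKO against 207 to 215, glial markers to 10.9 to 14.1 against 5.01 to 5.59, and duct markers to 293 to 307 against 246 to 287. None of these markers was at 0 in any islet library, and their part in the calls named here was not tested.

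Over the 9 islet libraries the levels most like that of Nkx2-2 included those of 1700019D03Rik, Atp1b3, 4932422M17Rik and Map2k7 (Pearson r 0.948 to 0.915, of 11544 genes, with 11 over 0.9).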

How the data were processed

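The authors deposited read counts per gene, not normalized, and FPKM for islets and progenitors. For ChIP-seq they deposited read counts around GEM events and log2 CPM at final sites, per the file headers and the deposited description (log base taken as 2, since they rise by 0.9935 per unit of log2 CPM from the counts). The authors' own comparisons, deposited as log2 differences, p-values and call scores (1, 0 or -1), were only quoted. The submitters' processing notes name STAR, Cufflinks, DESeq2, edgeR 3.20.9, limma 3.34.9 and bedtools 2.17.0 and the build mm10. Level ratios and Nkx2-9 shares without 1 library were added after the data were seen. The counting rule and the use of strand are not given in the sources used here.

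Counts were tested with edgeR 4.0.16 (R 4.3.3; TMM, filterByExpr, robust quasi-likelihood, Benjamini-Hochberg at 0.05), with all 8 progenitor libraries in a model of 3 groups, and standard errors as the absolute log2 fold change over the square root of F. DESeq2 1.42.0 was an alternative. Tables were normalized separately, so levels are compared within a table. The fits were tested on simulated data. Of 22 replicate pairs, none agreed within sampling noise (chi-square per degree of freedom 14.3 to 205). Same-numbered pMN and iNkx2.2 libraries deviated together (correlations 0.535, 0.513 and 0.568, from title numbers), so a replicate block was an alternative. Lane 4 held replicate 3 of both.

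Named genes are the members, Nkx2-2os, the family, 2 protein-coding neighbours on each side, at most 4 called genes per list and direction, and the 5 most alike genes, of which some are not reported here. Members and lists were chosen with earlier results of these data known. Sequences are from RefSeq (GRCm38.p6), and gene extents from GENCODE vM21.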

Additional observations from a re-analysis of the deposited data

Results flagged for a closer look

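Among the 8 named genes tested in embryonic pancreas, Nkx2-5 in SDmut replicate 1, at 40.4 CPM, and Slc25a21 in the same library, at 1.86 CPM, stood farther above the other 3 mutants than the spread of the 4 allows. A check of this kind marks about 1 group in 20 by chance. Neither Nkx2-2 nor Nkx2-2os stood out.

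The effects of the transgenes differed, by a direct test with edgeR, in Pax6 (log2 difference 2.77, higher in iSDmut), a call that was lost in 6 of the 8 fits without 1 library. The effects of betaSDmut and betaKO differed in Ppy (-1.43, edgeR adjusted p = 0.0468), which codes for pancreatic polypeptide. This call was lost in 7 of the 9 fits without 1 library, most of which leave 1 library in a group. Mutation, age and study cannot be told apart in this difference.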

How the results depend on the processing

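Of the member log2 fold changes under all alternatives, 133 kept direction and side of the threshold, 3 lost the call, 2 gained it and 8 changed sign. The fall of Nkx2-9 in iSDmut against pMN was not called without a count filter (-2.88), nor among lane 2 libraries (-2.66, with 1 iSDmut library), and ranged from -3.12 to -2.71 without 1 library. Its difference between iSDmut and iNkx2.2 was called with DESeq2 (2.097) and ranged from 1.73 to 2.91 without 1 library. Nkx2-2 changed sign only without 1 library and was never called in pancreas or islets: it ranged from -0.26 to 0.066 at E15.5 (positive without control 1), from -0.21 to 0.011 at 8 weeks (positive without control 1) and from -0.47 to 0.053 at 4 weeks (positive without control 1 or betaKO 2). The difference between the islet effects ranged from -0.14 to 0.38, with -0.0077 without 8-week control 2, -0.024 without betaSDmut 1 and -0.14 without 4-week control 1 or betaKO 2. Mbip in iSDmut against pMN changed from 0.093 to -0.044 with the replicate block, and ranged from -0.038 (without pMN 3) to 0.21 without 1 library. The cause of these changes was not tested.

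Numbers of genes called moved more than those of the members. At E15.5 (1) total library size gave 2, DESeq2 25, a block of the title numbers 0, and single omissions 0 to 2. At 8 weeks (1224) DESeq2 gave 2041, the replicate block 757, and single omissions 37 to 2765. At 4 weeks (233) total library size gave 127, no filter 372, DESeq2 770, and single omissions 4 to 478. The islet difference (194) had 653 with DESeq2 and 0 to 343 with single omissions. In iNkx2.2 against pMN (1486) DESeq2 gave 2271, the replicate block 4629, and single omissions 412 to 1604. In iSDmut against pMN (554) DESeq2 gave 1382, the replicate block 2626, these groups alone 295, lane 2 alone 151, and single omissions 171 to 471. Between iSDmut and iNkx2.2 (44) no filter gave 145, DESeq2 473, the replicate block 528, these groups alone 13, lane 2 alone 243, and single omissions 1 to 467. The block changed no member's call.

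Same-numbered iSDmut libraries correlated at 0.332 and 0.112 with iNkx2.2 and at 0.343 and 0.0503 with pMN. In each case the iSDmut library of the same number was the best match. Same-numbered islet libraries correlated at -0.121 to -0.0626, and none was the best match. The main fits took none of these numbers as pairs, and the replicate block was an alternative in these comparisons too. The level ratios were 22.5 in pMN, 78.4 in iNkx2.2 and 9.62 in iSDmut from CPM per kb, and 8.30 to 10.8, 175 to 268 and 22.8 to 28.0 from FPKM without 1 library. The Nkx2-9 share of the pMN mean ranged from 1.76% to 3.86% in iNkx2.2 and from 11.5% to 15.3% in iSDmut without 1 library. At Nkx2-2, 0 events lay within 50 kb and 1 final site within 100 kb. The number of libraries, 2 to 4 a group, limits the precision of these values.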
